A study of Rattus norvegicus with 18 samples.

Results

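Of 13811 genes named on the arrays, the 7 MHC class II antigen presentation genes RT1-Da, RT1-Db1, RT1-Ba, RT1-Bb, RT1-DMa, RT1-DMb and Cd74 were followed in the lungs of rats that had breathed cigarette smoke for 13 weeks. Every probe set annotated to one of these symbols alone was taken, which gave 12 of the 31256 probe sets on 2 kinds of Affymetrix array, here type A and type B. The rule uses symbols and no measured value, but the genes were chosen with earlier results of these data known. RT1-Ba had 4 of the 12 probe sets, RT1-Db1 and RT1-Bb had 2 each, and the other genes had 1 each. Of the 12, 10 were on type A and 2, both of RT1-Ba, on type B.

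The animals were male Sprague-Dawley rats, an outbred stock, exposed through the nose only, in daily sessions of 2 h and 5 sessions a week. The groups were sham-exposed rats and rats given mainstream smoke of the reference cigarette 2R4F in concentrations of 300 or 600 µg/l, counted as total particulate matter (TPM). Lungs were removed 2, 6 or 20 h after the final session. Each of the 9 combinations of exposure and recovery time had 1 array of each type, and the number of animals behind an array is not stated. The 4 smoke samples taken at 20 h carry an exposure label of sham, whereas their titles and source names give the smoke, which was followed here. No condition had a replicate array, so exposures were compared over the 3 recovery times and times over the 3 exposures (n = 3 arrays each), and a p-value therefore reflects the spread between these arrays alone, which may be technical.

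MHC class II molecules are pairs of an alpha and a beta chain that hold peptides of ingested proteins at the surface of macrophages, dendritic cells and B cells, where CD4+ T cells read them. In rats, RT1-Da and RT1-Db1 encode the alpha and beta chains of RT1.D, the counterpart of human HLA-DR, and RT1-Ba and RT1-Bb those of RT1.B, the counterpart of HLA-DQ. Cd74 encodes the invariant chain, which fills the peptide groove until the molecule reaches an endosome, and RT1-DMa and RT1-DMb encode the DM pair, which then exchanges its last fragment for a peptide. Rat alveolar type 2 cells also carry class II molecules, and class II genes are among the most variable genes between individuals.

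Class II genes share a promoter layout in which an X box bound by the RFX complex lies upstream of a Y box bound by NF-Y, and the coactivator CIITA acts through the complex they form. RefSeq promoter windows of 300 bases (build GRCr8) were at hand for 6 of the 7 genes. Measured from the start of the gene's span in the RefSeq gene table of that build, they held 250 bases before it and 50 from it on for RT1-Ba, RT1-Bb and RT1-DMa, 228 before for RT1-Da, 230 for RT1-Db1, and 115 before and 185 from it on for Cd74. They were searched on both strands for the X core AGNNAC, the Y box ATTGG, and a module of both with 20 to 36 bases between them. The stretches below are shown because they are the one sequence feature searched for in all 6 windows, and they are the gene's own strand, 5′ to 3′, with the X core and the Y box in capitals. They lie at chr20:4515324-4515378 (plus strand) for RT1-Da, chr20:4560230-4560283 (minus strand) for RT1-Db1, chr20:4576973-4577026 (plus strand) for RT1-Ba, chr20:4604167-4604220 (minus strand) for RT1-Bb and chr20:4712387-4712440 (minus strand) for RT1-DMa.
RT1-Da: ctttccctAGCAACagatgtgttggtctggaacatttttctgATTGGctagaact
RT1-Db1: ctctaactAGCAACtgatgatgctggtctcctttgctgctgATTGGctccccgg
RT1-Ba: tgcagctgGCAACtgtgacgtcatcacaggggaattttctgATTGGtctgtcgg
RT1-Bb: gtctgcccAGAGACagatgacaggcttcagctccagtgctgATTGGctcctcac
RT1-DMa: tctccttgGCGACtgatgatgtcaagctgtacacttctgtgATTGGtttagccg

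The AGNNAC module was found in 3 of the 6 windows, those of RT1-Da, RT1-Db1 and RT1-Bb, and in 3.26% of all 33469 windows of that length. With the core shortened to GNNAC, an alternative chosen after the first search, it was found in 5 of 6 and in 9.20% of all windows. Taken alone, AGNNAC was in 90.4% and ATTGG in 37.5% of all windows. The 2 motifs were 27 or 28 bases apart in each of the 5 stretches, with the Y box starting 27 bases before the start of the gene's span in RT1-Da and 64 in RT1-DMa at the extremes. The RT1-Ba window held 2 matches of the shortened module on the gene's strand. The match with a gap nearest 28 bases is shown, so the spacing in RT1-Ba was picked by rule. The Cd74 window held neither form of the module, and sequence beyond its 115 bases upstream was not searched. These are matches of letters and not measured binding sites.

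On the arrays, signals are the deposited MAS5 intensities, and all changes are log2 differences of (signal + 50), with a standard error (SE) and a p-value from limma adjusted over all 19638 tested probe sets. All 12 class II probe sets passed the filter on dim signals. Signals of different probe sets are not on a common scale and were not compared with each other. The annotation used here gives gene spans on GRCr8 (RT1 genes on chromosome 20, Cd74 on chromosome 18, from 56527071 to 56536406) and not which exon a probe set reads.

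Class II signals at 600 µg/l were mostly somewhat higher than in sham, and a single probe set, 1370822_at of RT1-Ba, passed the test. In whole lung, a change in the number of cells of a type and a change in RNA per cell cannot be told apart. RT1-Ba rose 1.60-fold on it (log2 0.68, SE 0.10, adjusted p = 0.019). That was 1 of 12 probe sets, against 0.514% of all those tested (0.428% with a rise), and 5 of 12 had an unadjusted p under 0.05, all higher (10.3% of all tested in either direction). The log2 change was positive in 11 of 12 (48.2% of all tested). The 3 arrays at 600 µg/l lay above the 3 sham arrays in 6 of 12 probe sets, against 6.98% of all tested. Over the 7 genes, each by its brightest probe set, the median log2 change was 0.24, against -0.0075 over all probe sets tested, and 0.22 with RT1-Ba represented by its brighter type A probe set.

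**Figure D1:**
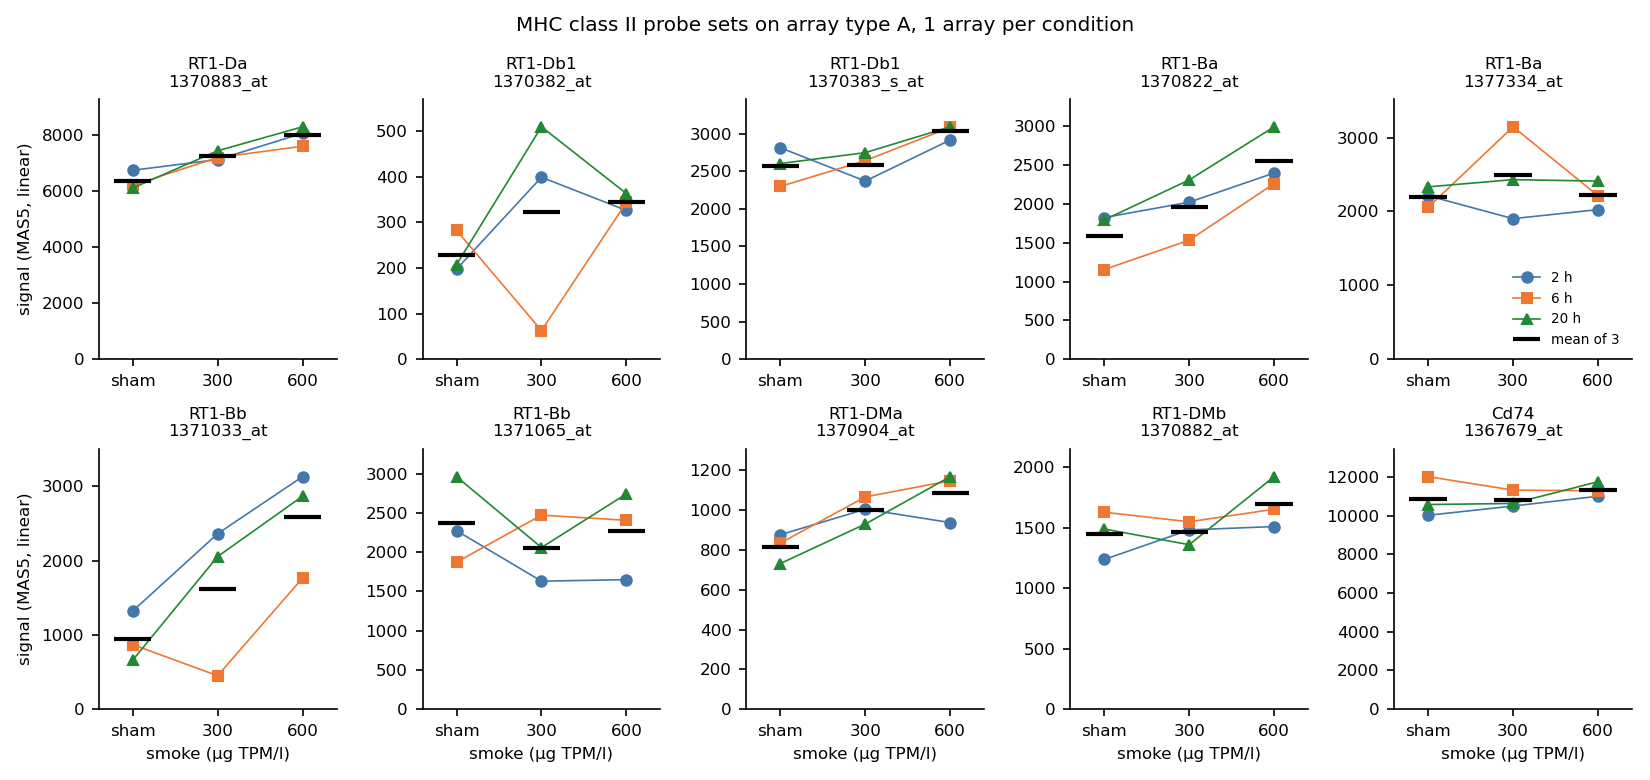
Signal (MAS5, linear, each panel with its own axis from 0) of the 10 type A probe sets in sham, 300 and 600 µg TPM/l. Points are single arrays joined by recovery time (2, 6 and 20 h) and bars are the mean of 3 arrays. RT1-Da and RT1-Ba 1370822_at climb with dose at each of the 3 times, while Cd74 stays between 10025.1 and 12024.9.

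Of the alpha chains, RT1-Da (1370883_at) read 6741.1, 6208.8 and 6106.9 in sham (2, 6 and 20 h), 7122.6, 7194.8 and 7435.5 at 300 µg/l, and 8059.9, 7597.7 and 8292.4 at 600 µg/l. None of the 3 exposures overlapped another, and the order sham, 300, 600 held at every recovery time. The mean was 7983 ± 354 at 600 µg/l and 6352 ± 341 in sham (SD, n = 3 arrays each). The log2 change was 0.33 (SE 0.06, adjusted p = 0.053), just outside the threshold, and at 2, 6 and 20 h it was 0.26, 0.29 and 0.44.

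RT1-Ba, the alpha chain of the other molecule, gave on 1370822_at 1825.7, 1155.7 and 1795.6 in sham, 2023.1, 1534.2 and 2309.9 at 300 µg/l, and 2399.4, 2262.9 and 2994.6 at 600 µg/l. The lowest array at 600 µg/l was above the highest sham array, and within each recovery time the signal followed the dose. The mean was 2552 ± 389 at 600 µg/l and 1592 ± 378 in sham (SD, n = 3 each). The difference by recovery time was 0.39, 0.94 and 0.72 (log2) at 2, 6 and 20 h.
This call was lost without any 1 of 4 type A arrays: sham at 6 h (log2 0.59, adjusted p = 0.091) or 20 h (0.66, 0.080), and 600 µg/l at 6 h (0.58, 0.076) or 20 h (0.68, 0.090). It was also lost without the 20 h conditions (0.66, adjusted p = 0.16). The other type A probe set of RT1-Ba, 1377334_at, had 2212.1, 2054.8 and 2332.8 in sham, 1902.3, 3145.4 and 2430.5 at 300 µg/l, and 2024.9, 2212.6 and 2410.4 at 600 µg/l. Its groups overlapped and its log2 change at 600 µg/l was 0.0086 (SE 0.13, adjusted p = 0.99). The 2 type A probe sets of RT1-Ba thus disagreed, with r = -0.07 over the 9 arrays they share.

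Of the beta chains, RT1-Db1 was read by 1370383_s_at and 1370382_at. The _s_at suffix marks a probe set that can bind related transcripts, so its RT1-Db1 reading is uncertain among close family members. It had 2810.8, 2297.2 and 2601.7 in sham, 2368.3, 2640.6 and 2746.6 at 300 µg/l, and 2915, 3082.2 and 3089.9 at 600 µg/l, where all 3 arrays lay above both other groups. The log2 change from sham was 0.24 (SE 0.09, adjusted p = 0.39). The dimmer 1370382_at had 197.5, 282.6 and 207.2 in sham, 399, 62.9 and 509.6 at 300 µg/l, and 326.2, 343.7 and 363.2 at 600 µg/l. Its 600 µg/l arrays also lay above sham, but with the 300 µg/l arrays spread on both sides of them the log2 change of 0.51 had an SE of 0.42 (adjusted p = 0.74).

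RT1-Bb had the largest type A change and, like RT1-Ba, probe sets that disagreed. On 1371033_at it read 1319.8, 869.1 and 658.3 in sham, 2361, 448.8 and 2053.6 at 300 µg/l, and 3130, 1764.1 and 2866 at 600 µg/l. The 600 µg/l arrays were above every sham array, while at 300 µg/l the 6 h array was the lowest of all 9. The log2 change at 600 µg/l was 1.41 (SE 0.35, adjusted p = 0.15), from 1.22, 0.98 and 2.04 at 2, 6 and 20 h. Without the type A array of 300 µg/l at 6 h it passed (adjusted p = 0.016), with the change itself the same. That array is outside this comparison and enters only the shared estimate of the spread. The pass is therefore no separate support for the rise. The other probe set, 1371065_at, had 2273.3, 1871.7 and 2962.2 in sham, 1630.1, 2471.6 and 2058.7 at 300 µg/l, and 1649.4, 2405.7 and 2742.5 at 600 µg/l. These overlapped throughout, with a log2 change of -0.069 (SE 0.16, adjusted p = 0.93).

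None of the peptide-exchange and chaperone genes passed. RT1-DMa (1370904_at) had 876.4, 834.6 and 731.6 in sham, 1004.7, 1066.6 and 930.2 at 300 µg/l, and 937.4, 1147.5 and 1168.4 at 600 µg/l. Both smoke groups lay above sham without overlap, with a log2 change at 600 µg/l of 0.39 (SE 0.11, adjusted p = 0.20). RT1-DMb (1370882_at), its partner chain, had 1238.4, 1629.4 and 1490.7 in sham, 1483.1, 1550.6 and 1360.8 at 300 µg/l, and 1511, 1654.3 and 1924.2 at 600 µg/l. Those groups overlapped, and the log2 change was 0.22 (SE 0.10, adjusted p = 0.52).
Cd74 (1367679_at) had 10025.1, 12024.9 and 10581.8 in sham, 10504.9, 11326.4 and 10636.7 at 300 µg/l, and 11010.7, 11295.3 and 11763.4 at 600 µg/l. The groups overlapped, the highest array was sham at 6 h, and the log2 change was 0.066 (SE 0.059, adjusted p = 0.77). Over the 9 arrays Cd74 had a log2 range of 0.26, against a median range of 0.42 over the 9901 tested type A probe sets.

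**Figure D2:**
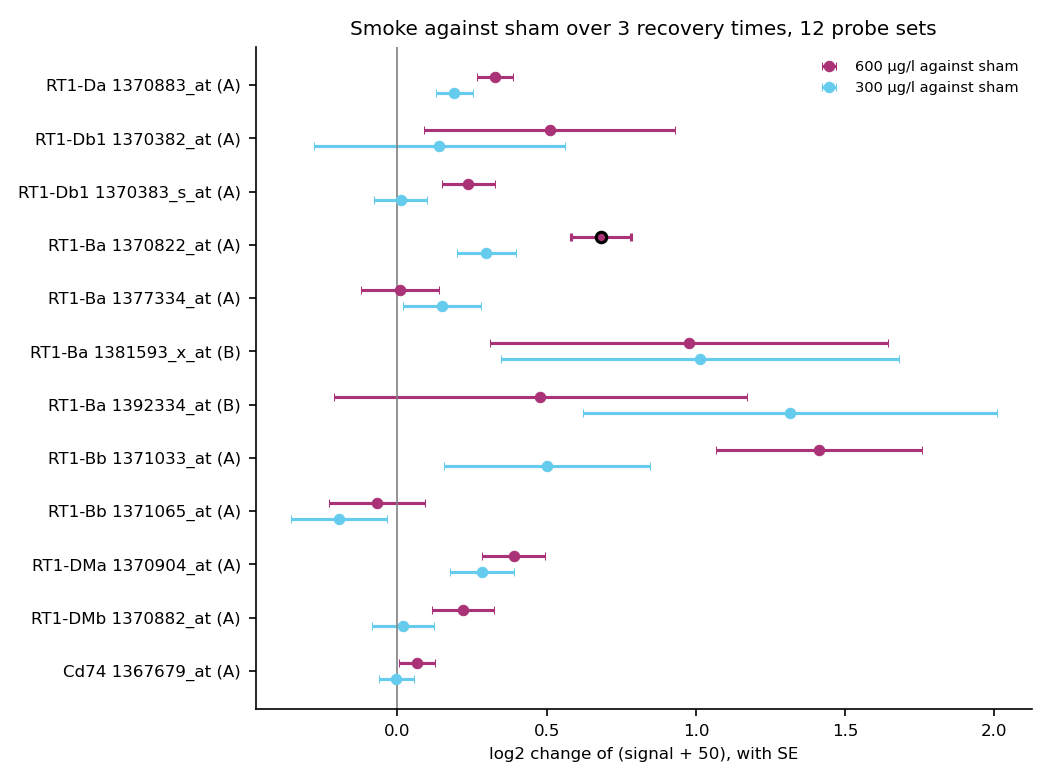
Log2 change of (signal + 50) for 600 µg/l against sham (upper point of each pair) and 300 µg/l against sham (lower point) for the 12 probe sets, with SE bars from the limma fit. The black ring marks the only adjusted p under 0.05, RT1-Ba 1370822_at at 0.68, and the widest bars are those of the type B probe sets and of RT1-Db1 1370382_at.

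At 300 µg/l against sham no class II probe set passed limma's test (0 of 12, against 0.0458% of all tested). At an unadjusted p under 0.05 there were 3 of 12, all higher (5.53% of all tested), which were RT1-Da at 0.19 (SE 0.06), RT1-Ba 1370822_at at 0.30 (SE 0.10) and RT1-DMa at 0.28 (SE 0.11), with adjusted p from 0.71 to 0.79. RT1-Da and RT1-DMa were the 2 whose 300 µg/l arrays all lay above sham (4.12% of all tested). Cd74 stood at -0.0038 (SE 0.059) and the median over the 7 genes at 0.018. Both smoke groups were set against the same sham arrays, so these values are not independent of those at 600 µg/l.

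Between 600 and 300 µg/l directly, 0 of 12 passed (0.0204% of all tested) and 4 had an unadjusted p under 0.05, all higher (5.05% of all tested). They were RT1-Ba 1370822_at at 0.38 (SE 0.10, adjusted p = 0.80), RT1-Bb 1371033_at at 0.91 (SE 0.35), RT1-Db1 1370383_s_at at 0.23 (SE 0.09) and RT1-Da at 0.14 (SE 0.06). RT1-Da and RT1-Db1 1370383_s_at were the 2 without overlap between these doses (4.52% of all tested). Tested for any difference among the 3 exposures, none passed (0.214% of all tested) and 5 had an unadjusted p under 0.05 (7.75% of all tested). RT1-Ba 1370822_at came nearest (adjusted p = 0.061), and it passed without the type A array of 300 µg/l at 6 h, which left 1 of 12 past the threshold.

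The 2 type B probe sets of RT1-Ba differed between arrays far more than the other 10. The 1381593_x_at set, whose suffix marks probes that can also bind unrelated sequences, had 5992.8, 329.9 and 579.6 in sham (2, 6 and 20 h), 6066.5, 4894.9 and 342.5 at 300 µg/l, and 8901.8, 963.8 and 1162.4 at 600 µg/l. The 1392334_at set had 5879.5, 232.9 and 422.2 in sham, 5702.7, 4818.7 and 385.3 at 300 µg/l, and 8646.3, 442.4 and 450.4 at 600 µg/l. In both, the 3 arrays at 2 h and the array of 300 µg/l at 6 h were bright and the other 5 dim, with nothing between 1162.4 and 4818.7.
These were the 2 widest ranges of all 9737 tested type B probe sets. The highest signal was 37.1 times the lowest in 1392334_at and 27.0 times in 1381593_x_at, with log2 ranges of 4.94 and 4.56 against a median of 0.60. Both sets were designed on the same expressed sequence tag, per the annotation, and followed each other with r = 0.97 over the 9 arrays, so they count as 1 observation. With the type A probe sets of the same gene, measured in the same conditions, they gave r from -0.06 to 0.16.

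**Figure D3:**
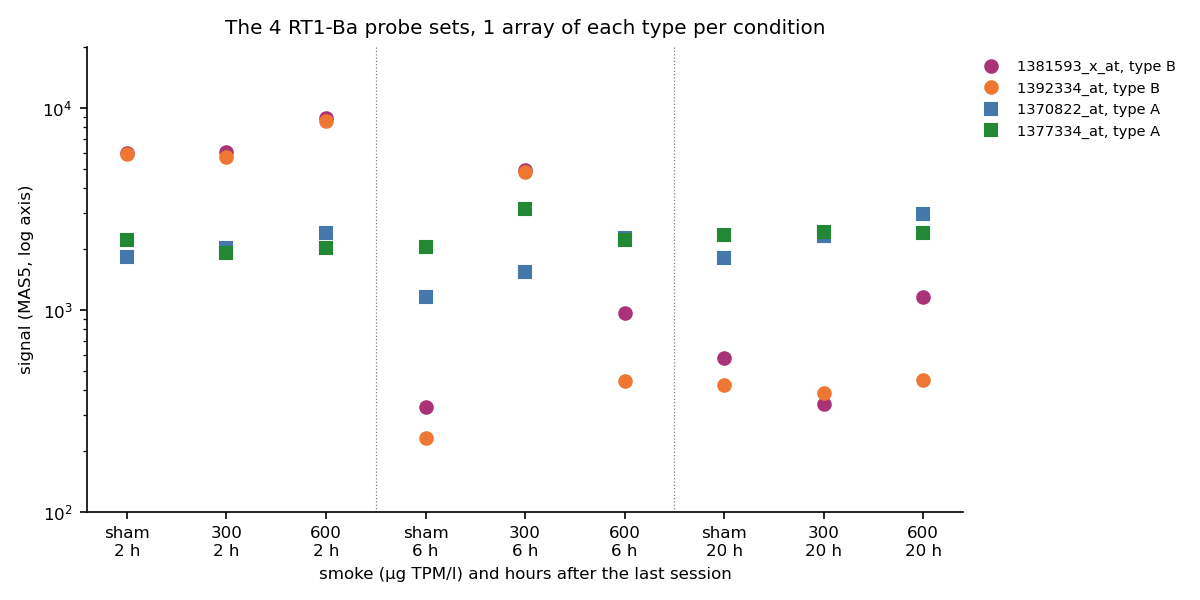
Signal (MAS5, log axis) of the 4 RT1-Ba probe sets in each condition, 1 array of each type per condition, ordered by recovery time and within it by dose. The type B sets (circles) lie at 4818.7 or above in 4 conditions and at 1162.4 or below in 5, whereas the type A sets (squares) lie between 1155.7 and 3145.4 in all 9, and the levels of different sets are not comparable.

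Over recovery times these 2 probe sets had the most negative changes of the 12, with the 2 h arrays above both the 6 h arrays (8.15% of all tested) and the 20 h arrays (9.42% of all tested) without overlap. At 20 h against 2 h, 1392334_at stood at -3.83 (SE 0.69, adjusted p = 0.094) and 1381593_x_at at -3.37 (SE 0.67, adjusted p = 0.13), and at 6 h against 2 h they stood at -2.92 (adjusted p = 0.21) and -2.48 (adjusted p = 0.26). No class II probe set passed in limma's comparison of 20 h with 2 h (0 of 12, against 0.0509% of all tested), and 3 had an unadjusted p under 0.05 (11.4% of all tested). Those were the type B pair and RT1-Bb 1371065_at, at 0.47 (SE 0.16, adjusted p = 0.31). RT1-Ba 1377334_at was the 1 of 12 whose 20 h arrays all lay above its 2 h arrays (8.58% of all tested).
Without the type B array of 300 µg/l at 6 h, both type B probe sets passed at 20 h against 2 h (adjusted p = 1.62e-05 for 1392334_at and 0.00064 for 1381593_x_at) and at 6 h against 2 h (adjusted p = 2.7e-05 and 0.0011 in that order). Each count at those times was then 2 of 12, both from the pair that counts as 1 observation. The array left out is the bright 6 h exception of these same probe sets. Its removal lowers their residual spread, so these p-values are no separate support. Against sham, the same 2 probe sets had log2 changes at 600 µg/l of 0.48 (SE 0.69) and 0.98 (SE 0.67), and at 300 µg/l of 1.31 and 1.01, none of which passed.

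The 2 type B arrays of sham and of 300 µg/l at 2 h were more alike than any other pair. Over all probe sets their deviations from the mean array had r = 0.56, against -0.16 for the type A arrays of the same 2 conditions. The next highest r between type B arrays was 0.12. The r of 0.56 belongs to both type B arrays and cannot tell which of them, if either, is out of place. RT1-Ba 1381593_x_at had 6066.5 on the 300 µg/l array and 5992.8 on the sham array. Without that sham array, the log2 change of this probe set at 20 h against 2 h was -3.02 (adjusted p = 0.33), and RT1-Da passed at 600 µg/l against sham (adjusted p = 0.0496) through the joint adjustment alone, which brought the count there to 2 of 12. With the type B array of 300 µg/l at 2 h left out instead, that count stayed at 1.

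A type A probe set of RT1-Bb and one of RT1-Ba averaged lower at 6 h than at the other times without passing the test. At 6 h against 2 h none of the 12 passed (0.0153% of all tested), and 5 had an unadjusted p under 0.05 (10.8% of all tested), 4 lower and 1 higher. Beside the type B pair, the lower ones were RT1-Bb 1371033_at at -1.22 (SE 0.35, adjusted p = 0.27) and RT1-Ba 1370822_at at -0.37 (SE 0.10, adjusted p = 0.26), and the higher one was Cd74 at 0.14 (SE 0.06, adjusted p = 0.45). Cd74 and RT1-DMb were the 2 whose 6 h arrays all lay above the 2 h arrays (7.93% of all tested). At 20 h against 6 h limma called 0 of 12 and 0 of 19638 probe sets (881 had an unadjusted p under 0.05, or 4.49%). RT1-Ba 1370822_at at 0.53 (SE 0.10, adjusted p = 0.76) and RT1-Bb 1371033_at at 0.80 (SE 0.35) were the 2 of 12 with an unadjusted p under 0.05.

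Whether the smoke effect differed between recovery times was tested with both smoke doses pooled, so the error there comes from the difference between the smoke doses within a time and does not include variation of sham arrays. For 6 h against 2 h limma called 0 of 12 and 0 of 19638 (1231 at an unadjusted p under 0.05, or 6.27%). RT1-Bb 1371065_at was the 1 of 12 with an unadjusted p under 0.05, with a difference of smoke effects of 0.83 (SE 0.22, adjusted p = 0.59). For 20 h against 2 h, 0 of 12 passed (0.0102% of all tested) and none had an unadjusted p under 0.05 (3.45% of all tested). The difference there was 0.19 (SE 0.16) for RT1-Da, 0.27 (SE 0.32) for RT1-Ba 1370822_at and 0.34 (SE 0.21) for RT1-DMa.

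Among themselves the class II genes did not form 1 pattern over the 9 conditions. With 1 probe set per gene, RT1-Da and RT1-DMa had r = 0.81, RT1-Da and RT1-Db1 r = 0.72, and Cd74 and RT1-DMb r = 0.85, whereas RT1-Da and Cd74 had r = 0.20. RT1-Ba 1370822_at had r = 0.82 with RT1-Da and 0.78 with RT1-Bb 1371033_at. The other type A set of RT1-Ba, 1377334_at, had r = 0.08 with RT1-Da and -0.58 with RT1-Bb 1371033_at. RT1-Bb 1371065_at had r = -0.13 with RT1-Da, 0.12 with RT1-Ba 1370822_at and 0.62 with RT1-Ba 1377334_at. The 2 RT1-Bb sets had r = -0.44 with each other. All of these pairs were read on the same 9 type A arrays and share their array effects. RT1-Db1 1370382_at and RT1-Bb 1371033_at, 2 beta-chain probe sets, had r = 0.81 and shared their lowest signal in the array of 300 µg/l at 6 h, 62.9 and 448.8. They had the 19th and the 9th widest log2 ranges of 9901 type A probe sets, 2.31 and 2.67, and the same condition was the bright exception of RT1-Ba on type B. Over all probe sets, the deviations of that condition's arrays had their highest r with another array at 0.024 on type A and 0.084 on type B.

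The probe sets most like the mean of the 7 class II genes, by Pearson r over the 9 conditions, were those of Sft2d2 (0.98), Slc4a11 (0.97), Cct5 (0.96), Lrrc59 (0.95) and Ublcp1 (0.94), where the 99th percentile over all tested was 0.84. That mean is carried by the wide range of RT1-Ba on type B. With RT1-Ba taken from type A, a choice made after seeing this, they were Ost4 (0.98), Atp6v0d1 (0.97), Acp2 (0.94), Ap5z1 (0.94) and Ppp1r14b (0.93). None of the 10 passed at 600 µg/l against sham.

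Of a list of genes linked to antigen processing and peptide loading, which also holds Cst3, Cd63, Marchf1 and Marchf8, the protease gene Ctsd rose at both smoke doses. Of 12 measured of 14 listed, 1 passed at 600 µg/l (2 without the type B sham array at 2 h), against 0.514% of all probe sets tested. An unadjusted p under 0.05 was reached by 8, all higher (10.3% of all tested in either direction), and the median log2 change was 0.33. Ctsd, which encodes the endosomal aspartic protease cathepsin D, had 4824.7, 5829.6 and 5884.9 in sham, 8665.2, 9084.4 and 8761.6 at 300 µg/l, and 9762, 10578.1 and 11027.4 at 600 µg/l. No exposure overlapped another, and Ctsd rose by a log2 of 0.92 at 600 µg/l (SE 0.06, adjusted p = 0.00027) and of 0.68 at 300 µg/l (SE 0.06, adjusted p = 0.0066).
The tetraspanin gene Cd63 stood at 0.39 (adjusted p = 0.051), Ifi30, which reduces disulfide bonds of antigen, at 0.41 (adjusted p = 0.057) and Lgmn, an asparagine-specific protease, at 0.38 (adjusted p = 0.061). Those 3 missed the threshold at 600 µg/l by little, with their 600 µg/l arrays all above sham. RT1-DOa and RT1-DOb, the inhibitors of DM, have no value here.

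Of a list of 12 genes drawn up around class II transcription, 10 were measured. It also holds Tox, which is not part of the RFX, NF-Y and CIITA system described above. None of the 10 passed at 600 µg/l or had an unadjusted p under 0.05, with a median of -0.024. Ciita, the coactivator that class II genes depend on, had on type B 955.6, 583.1 and 665.9 in sham, 970.9, 1068.2 and 919 at 300 µg/l, and 1052.3, 1062.3 and 732.4 at 600 µg/l. The 600 µg/l and sham arrays overlapped, with a log2 change of 0.36 (SE 0.16, adjusted p = 0.48). At 300 µg/l against sham this probe set stood at 0.43 (SE 0.16, adjusted p = 0.79), again with overlap. Its difference of smoke effects was 0.74 (SE 0.27, adjusted p = 0.74) for 6 h against 2 h. These last values both had an unadjusted p under 0.05, and neither passed. For 20 h against 2 h the difference was 0.21 (SE 0.27). The dimmer type A probe set of Ciita stood at 0.20 (SE 0.10) at 300 µg/l and 0.026 (SE 0.10) at 600 µg/l. Rfx5, a subunit of the X box complex, stood at -0.11 at 600 µg/l, and Tox at -0.32 and Creb1 at -0.12 did not pass either.

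Interferon gamma is a classical inducer of class II. Of 16 genes of its signalling and of its targets, 9 were measured, none passed and the median was 0.031. Gbp2, an interferon-induced GTPase, stood at -0.27 and the receptor chain gene Ifngr2 at 0.31, the only ones with an unadjusted p under 0.05, in opposite directions. The chemokine gene Cxcl11 stood at 0.41 and the kinase gene Jak2 at 0.20. Of 18 measured of 24 MHC class I presentation genes, none passed and the median was -0.030, with RT1-CE5 at -0.70 (adjusted p = 0.24), RT1-A2 at 0.46, Psmb9 at -0.20 and Erap1 at -0.17. Costimulation and recognition genes had 3 of 10 measured, none past, with Cd4, the T cell coreceptor that binds class II, at -0.38 (adjusted p = 0.26), Cd86 at 0.34 (adjusted p = 0.34) and Icos at 0.11.

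**Figure D4:**
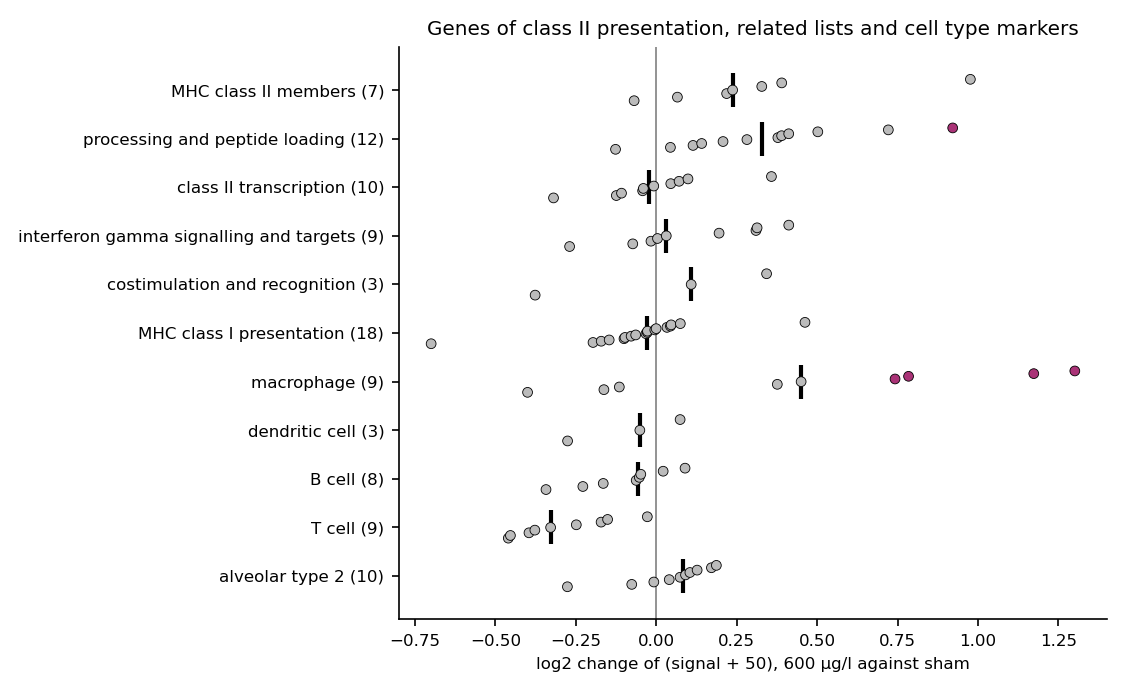
Log2 change of (signal + 50) at 600 µg/l against sham for each measured gene of the class II set, of related lists and of cell type marker lists (number measured in brackets), 1 probe set per gene. Each point is a gene, filled where the adjusted p was under 0.05, and bars are list medians, 0.24 for the 7 class II genes, 0.33 for processing and 0.45 for macrophage markers.

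Several macrophage markers were higher together with these values. Of 9 measured of 14 macrophage markers, 4 rose at 600 µg/l (0.428% of all probe sets tested) and none fell, with a median of 0.45: Gpnmb rose by 1.30, Cd68 by 1.17, Cd14 by 0.78 and Lgals3 by 0.74 (log2). The other 5 did not pass, with Mertk at 0.45 and Mrc1 at 0.38, and with Adgre1 at -0.40, Cd163 at -0.16 and Csf1r at -0.11. The summed type A macrophage signal was 11043.9 to 12054.6 in sham, 16646.4 to 19156.2 at 300 µg/l and 19819 to 22834.1 at 600 µg/l, 3 ranges that do not overlap. Such a sum weighs bright probe sets most, here Lgals3 and Gpnmb (mean signals 6815 and 5459), which were already among the 4 called. It is therefore not a separate result for the dimmer markers. The sum over the 3 type B markers was 4447.3 to 5753.9 in sham, 4918.1 to 5747.2 at 300 µg/l and 5829.9 to 6277.2 at 600 µg/l, where sham and 300 µg/l overlapped and 600 µg/l lay above both. The part of macrophage markers in the class II values was not tested. No marker was at 0, though Fabp4 and Itgam were under the filter.

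Markers of the other class II carriers had no call. Of 8 measured B cell markers none passed (median -0.058, Cd37 at -0.34, Cd79b at -0.23, Bank1 at -0.16 and Cd22 at 0.089). The type B sums were 6618.8 to 7803.3 in sham, 6572.3 to 8962.9 at 300 µg/l and 6631.9 to 7228.5 at 600 µg/l. The type A sums were 695.5 to 749 in sham, 547.1 to 855 at 300 µg/l and 506.6 to 626.5 at 600 µg/l. These type A sums hold only Cd37 and Cd79b, and at 600 µg/l they lay below sham without overlap. Cd37 had 380.3 to 388.5 at 600 µg/l and 466.1 to 549.8 in sham, whereas the Cd79b ranges overlapped. The share of all probe sets lying below sham in this way is not given here, so no result is read from the separation. Only 3 of 14 dendritic cell markers were measured and none passed (median -0.051, Fscn1 at -0.28, Cd83 at 0.074 and Batf3 at -0.051), while Ccl22, Clec9a, Itgae and Flt3 were under the filter. All 10 alveolar type 2 markers were measured and none passed (median 0.082, Sftpd at 0.19, Etv5 at -0.28, Napsa at 0.17 and Slc34a2 at 0.091). Of 9 measured T cell markers, which are not limited to the CD4+ T cells that read class II, none passed. All 9 were lower, where 48.2% of all tested probe sets had a positive change. An unadjusted p under 0.05 was reached by 5 (10.3% of all probe sets tested in either direction), with a median of -0.33 (Cd3d at -0.45, Cd3g at -0.40, Lck at -0.38 and Cd5 at -0.33).
Plasma cell, endothelial, and lymph node and thymus markers had no call among 7, 10 and 4 measured, with medians of 0.074, -0.14 and 0.0030. The tissue label was met by the alveolar type 2 markers, all of them above the filter.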

How the data were processed

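Lung RNA of 9 conditions was hybridised to 2 Affymetrix array types, and the deposited signal intensity values had been made by the authors with MAS5, per the submitters' processing notes. Its version, masks and detection calls are not given in the sources used here. Each array's mean without its highest and lowest 2% was near 500.1, so the authors' scaling was kept. Each type was fitted on its own with limma 3.58.1 (R 4.3.3; lmFit, then eBayes with an intensity trend) on log2(signal + 50), with exposure and recovery time as factors (4 residual degrees of freedom), or with smoke, time and their interaction (3). A probe set was tested if 3 or more of its 9 arrays reached the 40th percentile, a signal of 183.8 for type A and 238.7 for type B, which left 9901 and 9737. Tests were two-sided, with Benjamini-Hochberg adjustment over both types and a threshold of 0.05. A gene with several probe sets was represented in lists by the brightest. The scripts were tested on simulated data. The number of arrays limits the precision.

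All class II genes, Ciita, up to 4 genes per list by p (macrophage markers: all measured, added after their values were seen) at 600 µg/l against sham, and 5 genes by likeness are named. The members, lists and rules were chosen with earlier results of these data known. Symbols came from the platform annotation and promoter sequences from RefSeq (GRCr8). Alternatives covered scaling, pseudocount, filter, trend, adjustment, samples and factors in the fit, and each array left out.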

Additional observations from a re-analysis of the deposited data

How the results depend on the processing

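At 600 µg/l against sham the count of class II probe sets past the threshold was 1, and it was 0 with no filter, with no intensity trend or without the 20 h conditions, and 2 with the 60th percentile filter or with adjustment within each array type. Leaving out 1 array gave 0 to 2. The replicate numbers stand for recovery times, so the exposure comparisons are already paired by time. Without that replicate block the count was still 1, with RT1-Da's log2 change at 0.33, but RT1-Da passed (adjusted p = 0.047) and RT1-Ba 1370822_at did not (0.20), and no other exposure call changed. With only the 2 exposures in the fit RT1-Bb 1371033_at passed (0.024) in its place. The change of RT1-Ba 1370822_at stayed between 0.58 and 0.80 and passed under 20 of 29 alternatives, that of RT1-Da stayed between 0.24 and 0.37 and passed under 4, and that of RT1-Bb 1371033_at stayed between 0.99 and 1.87 and passed under 2. At 20 h against 2 h the count of 0 became 2 with only these times in the fit, and 0 to 2 with 1 array left out. At 6 h against 2 h it was 0 to 2 with 1 array left out. For any difference among exposures it was 1 with median scaling or adjustment within each type, and 0 to 1 with 1 array left out. The causes of these changes were not tested. The counts at 300 µg/l against sham, at 600 against 300 µg/l and at 20 h against 6 h were 0 under the alternatives run.

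Signs turned only in changes that had not passed. RT1-Ba 1377334_at at 600 µg/l against sham was -0.01018 with quantile normalization and -0.01016 without the 20 h conditions. At 300 µg/l against sham, without the 20 h conditions, RT1-Db1 1370382_at was -0.35, RT1-Db1 1370383_s_at -0.023 and RT1-Bb 1371033_at -0.033. With quantile normalization Cd74 was 0.025 at 300 µg/l against sham and -0.0071 at 6 h against 2 h. With 1 array left out, changes at 600 µg/l against sham ranged from -0.13 to 0.13 for RT1-Ba 1377334_at, from -0.30 to 1.02 for RT1-Ba 1392334_at and from -0.32 to 0.094 for RT1-Bb 1371065_at. At 300 µg/l against sham they ranged from -0.31 to 0.92 for RT1-Db1 1370382_at, from -0.081 to 0.12 for RT1-Db1 1370383_s_at and from -0.084 to 0.13 for RT1-DMb. For RT1-Ba the ranges there were -0.053 to 0.30 on 1377334_at, -0.22 to 1.85 on 1381593_x_at and -0.00029 to 2.01 on 1392334_at, and for Cd74 -0.039 to 0.056. On both type B probe sets it was the array of 300 µg/l at 6 h whose removal turned the sign.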
